A study of Oryza sativa with 8 samples.

Results

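The cellulose synthase (CESA) genes of rice were examined in seedling shoots of 2 varieties, Prasanna and Varadan, kept in hydroponic Yoshida medium that either lacked nitrogen or was supplemented with it. Members were the probe sets annotated with exactly 1 of 9 CESA loci, and this gave 14 of the 57381 probe sets of the array. Each of the 4 groups (Prasanna without nitrogen, Prasanna with supplemented nitrogen, Varadan without nitrogen and Varadan with supplemented nitrogen) was measured on 2 Affymetrix rice expression arrays. Per the labels' protocols, seedlings of all groups were germinated for 7 days and kept for 10 days in medium with nitrogen before the test media, although the tissue is labelled as 14 days old. The labels do not say whether replicates were separate plants, pools or cultures, so p-values measure only the spread between these arrays, which may be technical.

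CESA proteins are the catalytic subunits of the rosette-shaped complexes in the plasma membrane that spin cellulose microfibrils from UDP-glucose. Growing cells lay down a thin primary wall, and fibres and water-conducting cells later add a thick secondary wall. In rice, CESA4, CESA7 and CESA9 serve the secondary wall, and mutants in any of these genes have brittle culms. The other members, CESA1, CESA2, CESA3, CESA5, CESA6 and CESA8, are counted here as the primary wall class, in which CESA2 is the least characterised.

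Of the 14 member probe sets, 13 reached the level required for testing, a mean log2 signal of 4.48 over the 8 arrays. CESA3 (Os07g0424400) and CESA1 (Os05g0176100) have a bright and a dim probe set each, CESA2 (Os03g0808100) has 2 dim ones of which 1 was tested, and CESA4 (Os01g0750300) has 3. CESA5 (Os03g0837100), CESA6 (Os07g0252400), CESA7 (Os10g0467800), CESA8 (Os07g0208500) and CESA9 (Os09g0422500) have 1 each. The brightest probe set stood for each gene where 1 value per gene is given. Signals are log2 MAS5 values, and CESA levels are not compared between genes. Summed marker signals add linear values over probe sets, so the brightest genes weigh most in them. A positive nitrogen difference means a higher log2 signal without nitrogen, and each is given with the standard error of the limma fit.

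The arrays themselves set a limit on every nitrogen result. In both varieties the first no-nitrogen array departed from its replicate in a shared direction (Pearson r = 0.46 across 34333 probe sets between the replicate differences of Prasanna and Varadan without nitrogen). The fit treats arrays as independent, so standard errors and p-values of differences averaged over the varieties may be too small. The summed signal of 5 leaf and shoot markers (the Rubisco small subunits RBCS and RBCS1, Rubisco activase rca, CAB2R and GLO1) was 17.43 and 17.07 log2 on the first no-nitrogen arrays and 18.19 to 19.02 on the other arrays. None of these 5 markers was under the test level. Of 6 root markers, 5 also reached it, and Lsi2 did not. The control for 18S ribosomal RNA also read higher on replicate 1 than on replicate 2 in every group, with 15.49 against 13.51 in Prasanna without nitrogen and 14.17 against 13.26 in Varadan without nitrogen.

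Every tested CESA probe set had a higher mean without nitrogen than with it, averaged over the varieties. The median difference was 0.99 over the 13 probe sets, beside -0.029 over all 34333 tested probe sets. None of the 13 passed an adjusted p of 0.05 in limma (Benjamini-Hochberg over all tested probe sets), a threshold that 0.183% of all tested probe sets passed. At an unadjusted p under 0.05 the count was 11, all higher without nitrogen, beside a background of 6.59% for that direction. These hold all probe sets of CESA4, CESA1 and CESA3, so they are not independent readings. The dim CESA1 probe set among them had means of 5.94 and 5.78 without nitrogen and 5.08 and 2.53 with it. Its overall mean reached the test level only through the no-nitrogen arrays. In bulk shoots, a different share of cells of a type and a different amount of RNA per cell cannot be told apart.

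**Figure D1:**
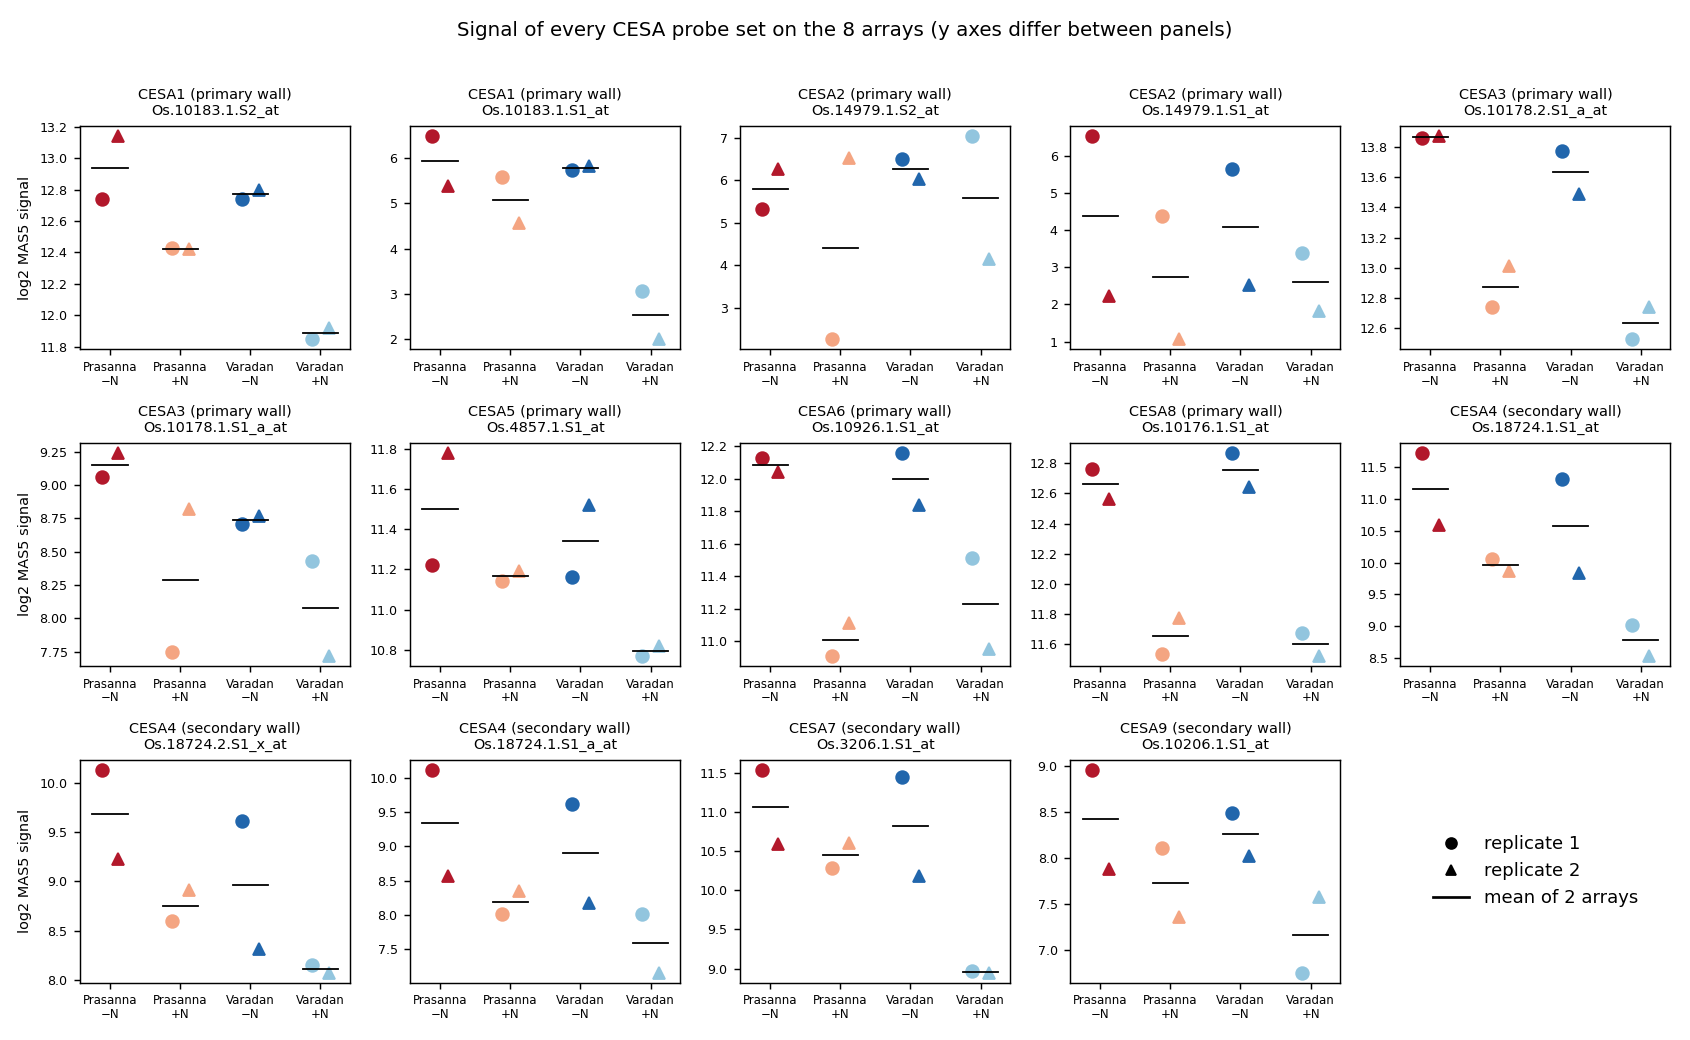
Log2 MAS5 signal of each of the 14 CESA probe sets on the 8 arrays, with circles for replicate 1, triangles for replicate 2 and a line for the mean of the 2 arrays of a group (−N, no nitrogen; +N, supplemented nitrogen). In CESA8, in the bright CESA3 probe set and in the CESA4 probe sets both no-nitrogen arrays lie above both supplemented arrays in each variety. In CESA4, CESA7 and CESA8 the first no-nitrogen array stands above the second in each variety, with a smaller gap in CESA8.

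In the primary wall class, CESA8 had the smallest adjusted p. Its signals without nitrogen were 12.76 and 12.56 in Prasanna and 12.87 and 12.64 in Varadan, while supplemented Prasanna read 11.53 and 11.77 and supplemented Varadan 11.67 and 11.52. All 4 no-nitrogen arrays lay above all 4 supplemented arrays. The averaged difference was 1.09 ± 0.18, a fold of 2.12 (limma adjusted p = 0.0774).

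CESA3 read on its bright probe set had the same layout. Prasanna read 13.86 and 13.87 without nitrogen and 12.74 and 13.01 when supplemented, and Varadan read 13.77 and 13.49 and then 12.53 and 12.74. The groups did not overlap in either variety. The averaged difference was 0.99 ± 0.18, a fold of 1.99 (limma adjusted p = 0.0931), and the dim CESA3 probe set stood at 0.77 ± 0.31 (0.50 without the first supplemented Prasanna array).

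In Prasanna CESA6 read 12.13 and 12.04 without nitrogen, and 10.91 and 11.11 on the supplemented arrays. Its Varadan signals were 12.16 and 11.84 against 11.51 and 10.95. The no-nitrogen arrays were again the higher ones in each variety, and the averaged difference was 0.92 ± 0.20 (limma adjusted p = 0.138).

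CESA1, on its bright probe set, read 12.74 and 13.14 in Prasanna without nitrogen, against 12.43 and 12.42 in supplemented Prasanna. The Varadan values were 12.74 and 12.80 against 11.85 and 11.92. Both no-nitrogen arrays were higher in each variety, with an averaged difference of 0.70 ± 0.18 (limma adjusted p = 0.181). The dim CESA1 probe set gave 2.06 ± 0.67, a size that rests on signals of 3.06 and 2.0 in supplemented Varadan, under the test level, and its Prasanna arrays overlapped.

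CESA5 had the smallest averaged difference of the class, 0.44 ± 0.20 (limma adjusted p = 0.404). Prasanna read 11.22 and 11.78 without nitrogen and 11.14 and 11.19 when supplemented, and Varadan read 11.16 and 11.52 and then 10.77 and 10.82. The groups did not overlap, although the lower no-nitrogen array in Prasanna was close to the supplemented ones. Here the second no-nitrogen array was the higher of its pair in both varieties.

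CESA2 could not be read reliably. Its tested probe set ranged from 2.26 to 7.04 over the 8 arrays, with 2.26 and 6.53 on the arrays of supplemented Prasanna, so the difference of 1.04 ± 1.07 is no larger than its error. Its other probe set lay under the test level on 6 of 8 arrays. Without the first supplemented Prasanna array, the averaged CESA2 difference was -0.032.

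In the secondary wall class the averaged differences were of similar or larger size, but the no-nitrogen replicates disagreed. CESA4, on its brightest probe set, read 11.73 and 10.59 in Prasanna without nitrogen, against 10.06 and 9.86 in supplemented Prasanna. In Varadan it read 11.32 and 9.83 against 9.02 and 8.53. The no-nitrogen arrays were the higher ones in each variety, with the first array more than 1 log2 unit above the second. The averaged difference was 1.5 ± 0.40, a fold of 2.82 (limma adjusted p = 0.202). The other CESA4 probe sets stood at 1.23 ± 0.47 and 0.88 ± 0.35. The smaller value was 0.56 without the first no-nitrogen Varadan array, and it came from a probe set with the suffix _x_at, which in Affymetrix naming marks probes that may bind other transcripts.

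CESA7 read 11.54 and 10.59 in Prasanna without nitrogen, against 10.29 and 10.61 in supplemented Prasanna. In Varadan the signals were 11.45 and 10.18 against 8.97 and 8.95. The Prasanna groups overlapped and the Varadan groups did not. The averaged difference was 1.24 ± 0.35 (limma adjusted p = 0.221).

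CESA9 read 8.96 and 7.88 in Prasanna without nitrogen, against 8.11 and 7.35 in supplemented Prasanna, and 8.49 and 8.02 against 6.75 and 7.57 in Varadan. It overlapped between the groups in Prasanna and was separated in Varadan. Its averaged difference was 0.89 ± 0.37 (limma adjusted p = 0.363).

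Both no-nitrogen arrays lay above both supplemented arrays in each variety for 9 of the 13 tested probe sets, beside 7.52% of all tested probe sets. These were 6 of the 8 primary wall probe sets (CESA1, CESA3 on both, CESA5, CESA6 and CESA8) and 3 of the 5 secondary wall probe sets, all of CESA4. Taken by variety, the count was 9 of 13 in Prasanna, beside 17.8%, and 12 of 13 in Varadan, beside 18.8%. The Varadan count includes the dim CESA1 probe set, whose supplemented signals there were under the test level. No member had both no-nitrogen arrays below both supplemented arrays in each variety, an arrangement that 8.44% of all tested probe sets had.

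The secondary wall probe sets shared an arrangement of the no-nitrogen replicates. The first no-nitrogen array was above the second in both varieties for 5 of 5, beside 34% of all tested probe sets. These 5 probe sets cover only 3 genes, whose signals ran together over the arrays. For the primary wall probe sets the count was 2 of 8, not far from that 34%. The gap between these replicates was 0.90 to 1.55 in Prasanna for the secondary wall probe sets, and 0.46 to 1.49 in Varadan. The median absolute gap over all tested probe sets was 0.66 in Prasanna and 0.65 in Varadan. For the primary wall probe sets the gap ran from -0.95 to 1.09 and from -0.36 to 0.45, with the Prasanna extremes set by CESA2 and the dim CESA1 probe set. No test was made between the classes.

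Averaged over its genes, the secondary wall class deviated from its 8-array mean by 1.30 and 0.24 without nitrogen and by 0.04 and -0.17 with it in Prasanna. In Varadan the deviations were 0.97 and -0.10 without nitrogen and -1.20 and -1.09 with it. The second no-nitrogen arrays of this class therefore sat near the supplemented Prasanna arrays, and the supplemented Varadan arrays were the lowest of the 8. For the primary wall class without CESA2 the values were 0.40 and 0.54 against -0.39 and -0.24 in Prasanna, and 0.40 and 0.32 against -0.47 and -0.55 in Varadan. All 4 no-nitrogen values of this class were positive and all 4 supplemented values negative. With CESA2 included, the supplemented Prasanna values became -0.87 and -0.03 and the supplemented Varadan values -0.14 and -0.69.

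**Figure D2:**
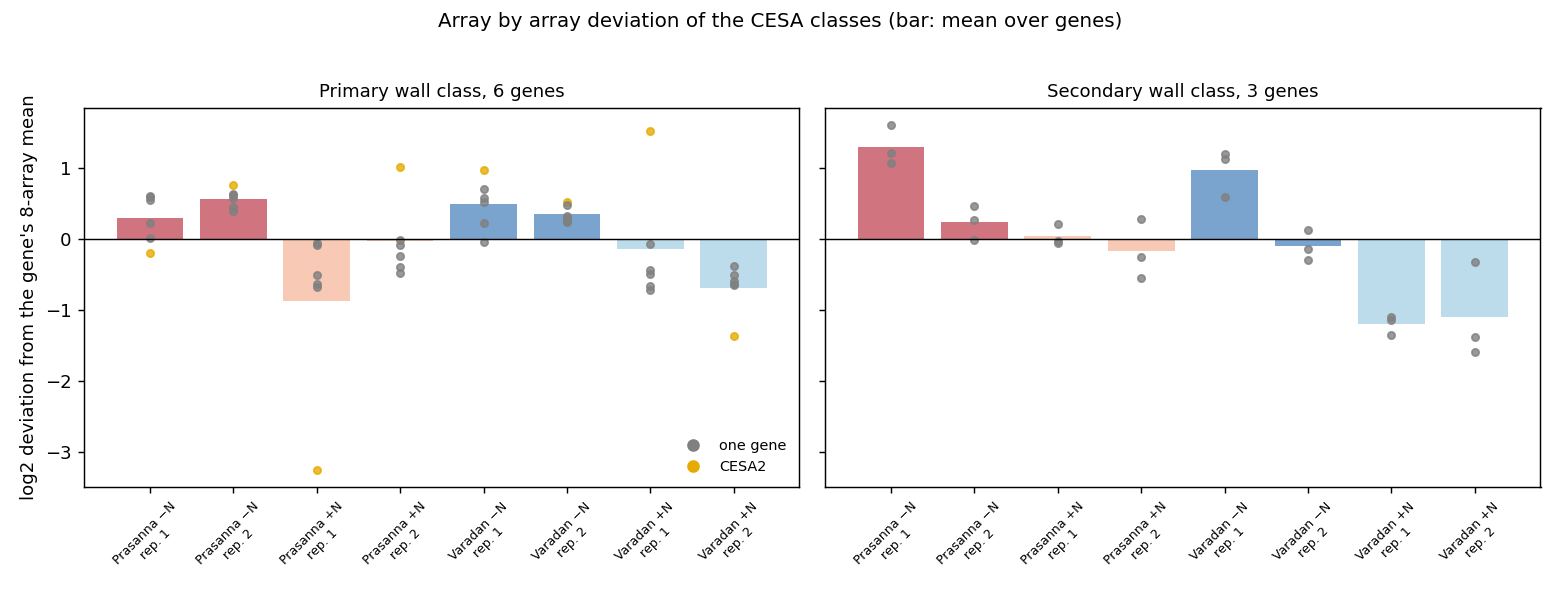
Log2 deviation from each gene's mean over the 8 arrays, with a point per gene (brightest probe set) and a bar for the class mean, for the 6 primary wall genes on the left and the 3 secondary wall genes on the right. Bars of the secondary wall class reach 1.30 and 0.97 on the first no-nitrogen arrays and -1.20 and -1.09 on the supplemented Varadan arrays, and CESA2 is the scattered point of the primary wall class.

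The averaged nitrogen differences were computed again without both first no-nitrogen arrays, which leaves 1 array in each no-nitrogen group and assumes that it varies like the supplemented arrays. CESA8 (0.98, limma adjusted p = 0.0283), CESA3 (0.93, 0.0314) and CESA1 (0.81, 0.0379) on their bright probe sets then passed, beside 3.5% of all tested probe sets. In the same fit CESA4 stood at 0.84, CESA7 at 0.68 and CESA9 at 0.50, and none of these passed (limma adjusted p = 0.118, 0.149 and 0.607). Without both second no-nitrogen arrays the values were 2.15 for CESA4, 1.79 for CESA7 and 1.28 for CESA9, against 1.20 for CESA8, 1.06 for CESA3 and 0.58 for CESA1. In that fit 8 of the 13 probe sets passed, beside 17.6% of all tested probe sets. It also gave 2 passes for nitrogen within Prasanna, beside 7.43%, and 6 within Varadan, beside 9.61%. On all 8 arrays, a model with additive terms for variety and nitrogen let CESA8 (limma adjusted p = 0.0349) and CESA3 on its bright probe set (0.043) pass, beside 0.717% of all tested. The averaged difference of the secondary wall class minus that of the primary wall class was 0.35 on all arrays, with a pooled SD between replicates of 0.72, and -0.22 without both first no-nitrogen arrays.

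The same arrays on which the secondary wall members were highest had the lowest leaf and shoot marker sums and the smallest 3′ to 5′ differences of the cyclophilin control, 0.74 and 1.0 on the first no-nitrogen arrays against 1.17 to 1.62 on the others. For the ubiquitin control this difference was -0.01 and 0.28 in Prasanna without nitrogen and -0.12 and 0.12 in Varadan without nitrogen. It was 0.32 and 0.34 in supplemented Prasanna and 0.67 and 0.73 in supplemented Varadan, so it separated all no-nitrogen from all supplemented arrays. The cyclophilin, actin and Gapdh controls did not. The 25S ribosomal RNA control read 13.07 and 12.54 against 14.0 and 13.11 in Prasanna, lower without nitrogen. In Varadan it read 12.58 and 12.06 against 13.40 and 13.07. The actin and Gapdh controls did not set both first no-nitrogen arrays apart in this way. Actin read 3.84 against 5.11 on the Prasanna replicates without nitrogen and 4.40 against 4.34 on those of Varadan. Gapdh read 2.79 against 2.77 and 4.11 against 3.87 on the same arrays. Their part in the CESA values was not tested.

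Within Prasanna, none of the 13 probe sets passed for nitrogen, as was the case for all 34333 tested (0%), and 3 had a limma unadjusted p under 0.05, beside 3.37% in that direction. These 3 were CESA8 (1.01 ± 0.25), CESA3 (0.99 ± 0.25) and CESA6 (1.08 ± 0.29). Within Varadan none of the 13 passed either, beside 0.00291% of all tested, and 7 had a limma unadjusted p under 0.05, beside 4.09% in that direction. They were CESA8 (1.16 ± 0.25), CESA3 on its bright probe set (1.0 ± 0.25), both CESA1 probe sets, CESA6 (0.77 ± 0.29), CESA4 on its brightest probe set (1.80 ± 0.56) and CESA7 (1.86 ± 0.49). The dim CESA1 probe set is counted here with supplemented signals under the test level. Without the first no-nitrogen Varadan array CESA4 stood at 1.06 and CESA7 at 1.22, and without the second supplemented Varadan array CESA6 stood at 0.49.

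The nitrogen differences of the 2 varieties were then set against each other as an interaction, Varadan minus Prasanna. No member passed, as was the case for all tested probe sets (0%), and none had a limma unadjusted p under 0.05, which 2.08% of all tested probe sets had. For CESA3 on its bright probe set the interaction was 0.0070 ± 0.36, and for CESA8 it was 0.15 ± 0.35. The secondary wall values were 1.24 ± 0.69 for CESA7, 0.60 ± 0.80 for CESA4 and 0.40 ± 0.74 for CESA9.

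**Figure D3:**
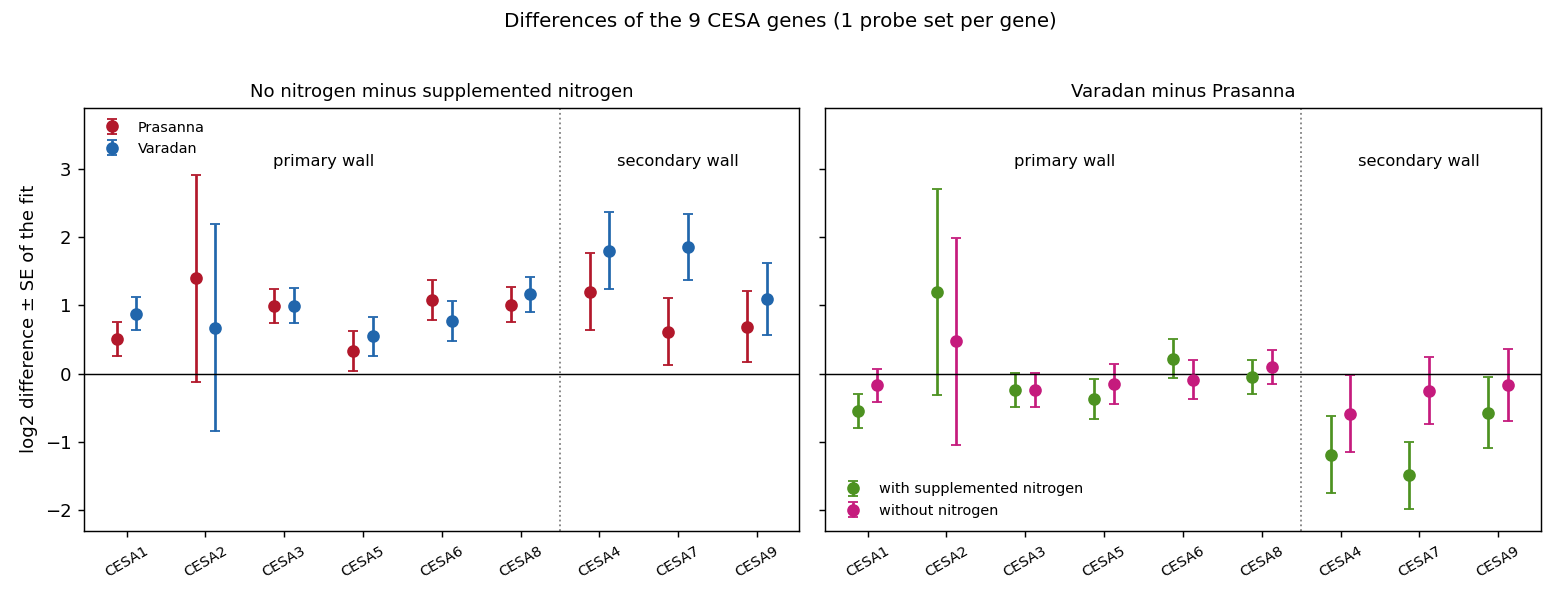
Log2 differences of the 9 CESA genes (1 probe set per gene) with the standard error of the limma fit, left for no nitrogen minus supplemented nitrogen in each variety and right for Varadan minus Prasanna at each nitrogen level. All nitrogen differences are above 0, and the lowest variety differences are those of CESA7 (-1.49) and CESA4 (-1.19) with supplemented nitrogen.

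Between the varieties with supplemented nitrogen, all 3 secondary wall genes had a lower mean in Varadan. CESA7 read 8.97 and 8.95 in Varadan against 10.29 and 10.61 in Prasanna, a difference of -1.49 ± 0.49 (limma adjusted p = 0.444). CESA4 differed by -1.19 ± 0.56 and CESA9 by -0.57 ± 0.53. With single arrays left out the CESA9 value ran from -0.98 to -0.16, lowest without the second and highest without the first supplemented Varadan array. The Varadan arrays lay below the Prasanna arrays in CESA7 and CESA4 and overlapped with them in CESA9.

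In the primary wall class the variety differences with supplemented nitrogen were -0.54 ± 0.25 for CESA1, -0.37 ± 0.29 for CESA5, -0.24 ± 0.25 for CESA3, -0.053 ± 0.25 for CESA8 and 0.22 ± 0.29 for CESA6. CESA2, the scattered member, had the opposite sign to most at 1.20 ± 1.51, and the class mean was 0.035 with it and -0.20 without it. With single supplemented arrays left out the CESA3 value on its bright probe set ran from -0.38 to -0.11, and those of CESA2, CESA6 and CESA8 changed sign. The dim CESA3 probe set ran from -0.75 to 0.33. None of the 13 tested probe sets passed, beside 0.693% of all tested. Of the 13, 2 had a limma unadjusted p under 0.05, both lower in Varadan (CESA7 and the dim CESA1 probe set), beside 3.38% in that direction. The dim CESA1 probe set read 3.06 and 2.0 on the supplemented Varadan arrays, under the test level, so its difference cannot be sized reliably. Both Varadan arrays were below both Prasanna arrays for 8 of the 13, beside 20.5% of all tested. These were 4 of 8 primary wall probe sets, the dim one of CESA1 among them, and 4 of 5 secondary wall probe sets. Where the spread rested on the supplemented arrays alone, in the fits without both first or both second no-nitrogen arrays, the CESA7 difference passed (limma adjusted p = 0.0259 and 0.0278), beside 2.15% and 1.82% of all tested probe sets.

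Without nitrogen, CESA4 had a variety difference of -0.58 ± 0.56, CESA7 of -0.25 ± 0.49 and CESA9 of -0.17 ± 0.53, and the primary wall genes other than CESA2 ran from -0.23 to 0.095. Both Varadan arrays lay below both Prasanna arrays for 2 of the 13 probe sets, both of CESA3, beside 15.2% of all tested. No member passed, beside 0.763% of all tested, and none had a limma unadjusted p under 0.05, which 6.36% of all tested had. For the Gapdh control (a glycolytic enzyme) the 3′ to 5′ difference was 2.77 to 2.93 in Prasanna and 3.87 to 4.78 in Varadan, and its part in the variety differences was not tested.

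Across the 8 arrays the secondary wall genes followed each other. Pearson r was 0.96 between CESA4 and CESA7, 0.83 between CESA4 and CESA9 and 0.81 between CESA7 and CESA9. Among the primary wall genes other than CESA2, r ran from 0.52 (CESA5 with CESA6) to 0.95 (CESA3 with CESA8, and CESA6 with CESA8), and CESA1 with CESA5 reached 0.93. Between the classes, without CESA2, it ran from 0.40 to 0.84. These values describe 8 arrays in 4 groups that share the nitrogen and array differences above, and they carry no p.

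Among 2463 tested loci with a symbol, those most like the mean secondary wall profile were XBOS33 (r = 0.99), OsCASPL4B4 of the CASP-like membrane proteins (0.98), the lipid transfer protein LTP-2 (0.98), BC1 (0.97) and LOL3 (0.97). BC1 is a COBRA-like protein needed for cellulose assembly in the secondary wall, whose rice mutant also has brittle culms. Of all 21510 tested loci, 429 (1.99%) had r over 0.9 with this profile. Most like the primary wall profile were OsUEL-3 (0.99), the galactolipid synthase MGD3 (0.96), the auxin response factor ARF9 (0.96), the calmodulin-like CML13 (0.95) and MUB2 (0.95), and 151 loci (0.702%) had r over 0.9. The primary wall profile averaged all 6 genes, with the scattered CESA2 included, whose own r with it was 0.53.

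BC1 (Os03g0416200) was among the loci picked for likeness to a profile that includes CESA4. Its CESA4-like array pattern is therefore no separate support. Prasanna read 9.91 and 9.06 without nitrogen and 8.69 and 7.88 when supplemented, and Varadan read 9.63 and 8.52 and then 7.44 and 7.33. The no-nitrogen arrays were higher in each variety, with the first above the second. Its averaged difference was 1.44 ± 0.36 (limma adjusted p = 0.178). GLU1, the membrane-bound endoglucanase that acts with the cellulose synthase complex, stood at 0.35 ± 0.26. Of 6 tested genes of the cellulose partner list (COBRA-like proteins and endoglucanases) none passed, beside 0.183% of all tested probe sets, 1 was higher at a limma unadjusted p under 0.05, beside 6.59%, and the median was 0.44.

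Xylan and lignin are polymers that surround cellulose in the wall. Over all tested probe sets 16466 of 34333 had a higher mean without nitrogen, 0.183% passed, and 6.59% were higher and 6.82% lower at a limma unadjusted p under 0.05. Of 9 tested genes of xylan synthesis, all 9 had a higher mean without nitrogen (median 0.46), none passed, and 3 were higher at a limma unadjusted p under 0.05. They included GT43A at 0.88 ± 0.19 and GT43C at 1.06 ± 0.39, glycosyltransferases of the family that builds the xylan backbone. Of 28 lignin genes 21 had a higher mean (median 0.46), none passed, and 12 higher and 1 lower had a limma unadjusted p under 0.05. The 4-coumarate:CoA ligase 4CL3 was closest to the threshold at 1.32 ± 0.19 (limma adjusted p = 0.0648). HCT4, an acyltransferase, stood at 2.55 ± 0.54 averaged over the varieties, with 0.89 ± 0.76 in Prasanna and 4.22 ± 0.76 in Varadan. Its supplemented Varadan signals were 1.47 and 2.93, under the test level, so the size of its difference rests on dim readings.

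The cellulose synthase-like genes, which make mannan, mixed-linkage glucan and other hemicelluloses, had a median of 0.24 over 21 tested genes, and none passed or had a limma unadjusted p under 0.05. CSLA3 stood at 0.66 ± 0.35 and OsCslF8 at 0.74 ± 0.33. Wall-loosening genes, nearly all expansins, had a median of 0.29 over 23 tested genes, with 13 above 0, and none passed. EXPB16 stood at 1.67 ± 0.55 and EXPB8 at -1.38 ± 0.38, the only genes of that list with a limma unadjusted p under 0.05.

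Markers of dividing cells showed no count past the threshold in either direction. Of 16 tested genes 6 had a higher mean without nitrogen (median -0.32), and none passed or had a limma unadjusted p under 0.05. In Prasanna 8 of 16 had a higher mean and in Varadan 4 of 16. No test compared them with the CESA members. The mitotic kinase CDKB2-1 stood at 0.41 ± 0.20 and the meristem homeobox gene OSH15 at 0.73 ± 0.42. Both belonged to the 6 genes with a higher mean, while most of the list was lower, such as MCM5 at -0.70 ± 0.48 and PCNA at -0.42 ± 0.31. Their summed signal was 12.69 to 13.52 log2 without nitrogen and 12.96 to 13.77 with it. Root markers, of which 5 of 6 were tested, had a median of 0.038 with QHB at -0.49 ± 0.49 and Lsi1 at -0.20 ± 0.21, and their summed signal was 10.13 to 11.04 log2 without nitrogen and 10.32 to 10.68 with it. All 5 leaf and shoot markers had a lower mean without nitrogen (median -0.87), none passed and 4 were lower at a limma unadjusted p under 0.05, beside 6.82% of all tested probe sets, with RBCS at -0.87 ± 0.30 and GLO1 at -1.47 ± 0.46.

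**Figure D4:**
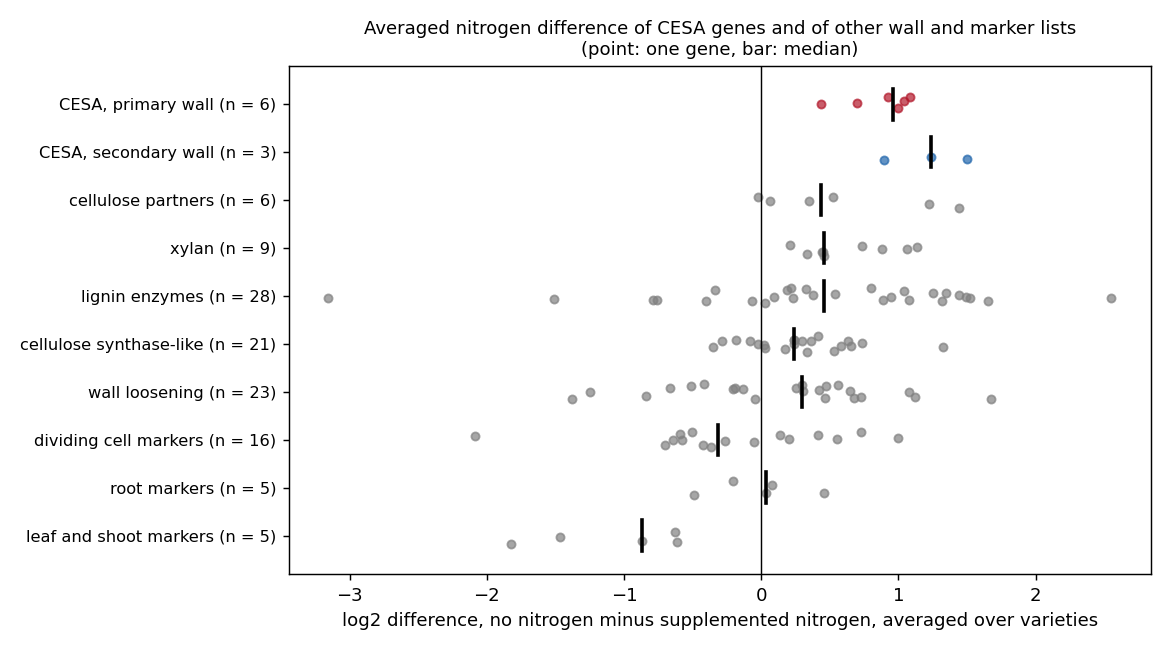
Averaged nitrogen difference (log2, no nitrogen minus supplemented nitrogen) of each tested gene, a point per gene and a bar for the median, for the 2 CESA classes, 5 lists of other wall genes and 3 marker lists. Both CESA classes lie wholly above 0, with medians of 0.96 and 1.24, while the leaf and shoot markers lie wholly below 0.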

How the data were processed

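Shoot RNA of 8 samples was hybridised to Affymetrix rice arrays. Per the submitters' processing notes, MAS5 gave the signals, with no version stated. Values came from the deposited log2 table. A second deposited table holds the linear intensity values, whose log2 differed by at most 3e-08. The trimmed mean of linear signals was 500.0 for each array, so a change shared by most transcripts is removed. MAS5 subtracts mismatch signals and scatters dim probe sets. Detection calls and scanner files were not used here. Precision is limited by having 2 arrays a group.

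The 187 controls were left out. Testing took the 34333 probe sets (21510 loci) whose mean log2 reached the 40th percentile of 4.48. limma 3.58.1 (R 4.3.3) estimated the 4 group means together from the 8 arrays (lmFit, eBayes with trend, 4 residual degrees of freedom), 2-sided, with Benjamini-Hochberg adjustment over all tested probe sets. The fit was also run on simulated data with independent noise on each array. Such data lack the shared departure of the first no-nitrogen arrays, so the run does not bear on that limit. Symbols came from a RefSeq gene table (ASM3414082v1), from symbol or synonym. Of 25727 loci, 2664 had one.

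Members, lists and tests were chosen with earlier results of these data known. Lists were matched by symbol. From the lignin list 53 CCCH zinc finger genes that share the name C3H were removed, and 1 bHLH gene that shares the name BC1 was removed from the cellulose partners. A list of secondary wall regulators matched no symbol and was not analysed. The text names every CESA member, list genes past the threshold in any comparison with the 2 of largest absolute moderated t for the averaged nitrogen effect, and the 5 loci with symbols most correlated with each class profile. BC1 came from both rules. Alternatives were quantile normalization, other filters, a floor, the variance prior, array weights, an additive model, a replicate block and leaving out arrays.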

Additional observations from a re-analysis of the deposited data

How the results depend on the processing

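Over 52 single CESA differences (13 probe sets in 4 comparisons) and their alternatives, 856 of 889 values kept direction and side of the threshold, 23 passed newly and 10 changed sign. The new passes came with the additive model (2), without both first no-nitrogen arrays (4) and without both second no-nitrogen arrays (17). Leaving out arrays changes both the estimates and the arrays behind the spread. The sign changes, all from leaving out 1 supplemented array and none in a called value, were in CESA2, with ranges over the left-out arrays of -0.032 to 2.11 (averaged), -0.74 to 3.54 (Prasanna), -0.77 to 2.13 (Varadan) and -0.94 to 3.34 (variety with supplemented nitrogen), and, for variety with supplemented nitrogen, in CESA6 (-0.058 to 0.50), CESA8 (-0.17 to 0.066) and the dim CESA3 probe set (-0.75 to 0.33). CESA probe sets that passed for the averaged effect numbered 0 on all arrays, 2 in the additive model (CESA8 and CESA3), 3 without both first and 8 without both second no-nitrogen arrays. Without both second no-nitrogen arrays, 2 passed in Prasanna and 6 in Varadan. For variety with supplemented nitrogen 1 passed without both first and 1 without both second no-nitrogen arrays. Leaving out any single array gave 0 CESA passes in all comparisons. The class difference of 0.35 ran from 0.01 to 0.68 with single arrays left out, and was -0.22 without both first and 0.91 without both second no-nitrogen arrays. The class values without CESA2 and the class differences with arrays left out were chosen after seeing the data. The cause was not tested.

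Over all tested probe sets, the 63 passes for the averaged effect became 1 without the variance trend, 120 with array weights, 246 in the additive model, 1202 without both first and 6032 without both second no-nitrogen arrays, and ran from 0 to 84 with single arrays left out. In Prasanna the 0 passes became 1 with signals under 16 set to 16, 296 without both first and 2551 without both second no-nitrogen arrays, and ran from 0 to 5 with single arrays left out. In Varadan the 1 pass became 0 without the variance trend, 370 and 3301 in those fits, and ran from 0 to 1. For variety with supplemented nitrogen, 238 became 129 at the 60th percentile filter, 393 with the floor, 572 with array weights, 739 without both first and 626 without both second no-nitrogen arrays, and ran from 42 to 278. For variety without nitrogen, 262 became 173 at the 60th percentile filter and 155 with array weights, and ran from 158 to 194.

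Samples share replicate numbers but the labels name no shared batch. Replicate differences correlated at r = 0.46 between the no-nitrogen groups and at -0.039 to 0.11 between all other pairs of groups. The main fit did not take the numbers as pairs and treated all arrays as independent. With the replicate number as a block, 150 probe sets passed for the averaged effect and no CESA probe set did.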

Other observations

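Among the wall lists, the genes that passed in any comparison were lignin genes that differed between the varieties. HCT3, an acyltransferase, was higher in Varadan than in Prasanna by 2.85 ± 0.44 log2 with supplemented nitrogen (limma adjusted p = 0.0442) and by 4.59 ± 0.44 without nitrogen (limma adjusted p = 0.00616). Without nitrogen it read 9.66 and 10.05 in Varadan against 5.14 and 5.39 in Prasanna. The laccase LAC15 was higher in Varadan by 4.55 ± 0.65 without nitrogen (limma adjusted p = 0.0299), with 8.03 and 9.53 against 3.93 and 4.53. Of these Prasanna signals, 3.93 is below the 4.48 that a mean had to reach for testing.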
